A study of Mus musculus with 12 samples.

Results

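A set of 10 regulators of the epithelial-to-mesenchymal transition (EMT) was followed through Brca1-deficient mouse mammary glands and tumors. The set was chosen by name: the transcription factors Zeb1, Zeb2, Snai1, Snai2, Twist1, Twist2 and Prrx1, the epithelial transcription factor Grhl2, and the epithelial splicing factors Esrp1 and Esrp2. All 10 were present among the 21743 genes of the table. The cells came from 2 mice of the C57BL/6 and 129/Sv mixed strain that carried MMTV-Cre and Brca1flox/flox, so the glands shared the deletion genotype of the tumors, and MMTV drives Cre mainly in mammary epithelium. Each mouse gave mammary glands (MG1, MG2) and a mammary tumor (MT1, MT2), so each tumor stands for 1 animal, and the suspensions had been depleted of hematopoietic and endothelial cells. RNA was read by Drop-seq, a droplet method that counts molecules with unique molecular identifiers (UMIs), in 2 libraries of MG1, 2 of MG2, 5 of MT1 and 3 of MT2. The labels do not give the ages of these animals.

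EMT is the process in which epithelial cells lose their junctions and polarity and take on properties of mesenchymal cells. The ZEB, SNAIL and TWIST families repress epithelial genes such as Cdh1, in large part through E-box motifs, and PRRX1 is a homeobox factor of mesenchyme. GRHL2 maintains epithelial junction genes and opposes ZEB1, and ESRP1 and ESRP2 keep the epithelial splice forms of transcripts such as Fgfr2 and Cd44. In the mammary gland, Snai2 is a known factor of the basal layer.

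The promoter bases of 3 members are shown for reference. Twist1 and Twist2 are close paralogs that were both measured in the Cav1-high cells of MT1 while MT2 held Twist2 with almost no Twist1. Snai1 was the one of the 5 members with a promoter entry that matched the E-box that ZEB and SNAIL proteins are known to bind. That share is near the share of all genes, and no regulation is read from it. The stretches are the 250 bases before the RefSeq start on GRCm38.p6, written 5′ to 3′ on the gene's strand, and capitals mark the E-box.
Snai1 (chr2:167537945-167538194, plus strand): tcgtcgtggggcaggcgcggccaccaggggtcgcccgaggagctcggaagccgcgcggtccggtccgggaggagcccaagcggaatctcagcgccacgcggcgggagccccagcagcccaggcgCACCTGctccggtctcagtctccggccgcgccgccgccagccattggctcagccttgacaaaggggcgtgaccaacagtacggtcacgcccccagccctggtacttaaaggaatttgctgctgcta
Twist1 (chr12:33957421-33957670, plus strand): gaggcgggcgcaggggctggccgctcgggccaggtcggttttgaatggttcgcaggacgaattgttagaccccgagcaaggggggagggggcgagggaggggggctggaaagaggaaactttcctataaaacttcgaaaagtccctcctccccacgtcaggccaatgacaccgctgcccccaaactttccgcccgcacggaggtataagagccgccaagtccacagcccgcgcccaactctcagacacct
Twist2 (chr1:91801211-91801460, plus strand): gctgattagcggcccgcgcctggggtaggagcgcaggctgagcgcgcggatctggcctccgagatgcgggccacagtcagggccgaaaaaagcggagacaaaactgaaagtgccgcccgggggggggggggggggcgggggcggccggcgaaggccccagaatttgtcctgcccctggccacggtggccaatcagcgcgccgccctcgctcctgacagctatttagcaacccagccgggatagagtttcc
The motif searched was CAGGTG, or CACCTG on the other strand. It was found in 1 of the 5 members with a promoter entry, at base 125 of the Snai1 stretch, and in a promoter of 19.4% of all 27025 genes, or 17.2% of all 32851 promoters of that length. The other members with an entry were Zeb2 and Prrx1.

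By the GENCODE M21 annotation of GRCm38, Zeb1 lies on chromosome 18 from 5591860 to 5775467 and Zeb2 on chromosome 2 from 44983632 to 45117395. Snai1 lies on chromosome 2 from 167538195 to 167542814 and Snai2 on chromosome 16 from 14705852 to 14709385. Twist1 lies on chromosome 12 from 33957671 to 33959829, Twist2 on chromosome 1 from 91801461 to 91848028 and Prrx1 on chromosome 1 from 163245119 to 163313710. Grhl2 lies on chromosome 15 from 37233036 to 37363569, Esrp1 on chromosome 4 from 11331933 to 11386783 and Esrp2 on chromosome 8 from 106130319 to 106136974. All are protein-coding, and the UMI counts are of whole genes. Esrp2 overlaps Nfatc3 on the opposite strand (355 UMIs of Esrp2 and 2282 of Nfatc3 in the whole table), and Grhl2 overlaps the antisense gene Gm16136 (1008 UMIs of Grhl2 and 510 of Gm16136). Whether counting used strand is not given in the sources used here, so these counts are uncertain to that extent.

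The populations were set without the members. Cells were clustered with the members and 3 related gene lists held out, and clusters were named from marker genes. Gland epithelium was 2713 gland cells of luminal secretory-like, luminal hormone-sensing-like and basal-like clusters (median 2668 UMIs per cell). In MT1, 5546 cells with an Epcam UMI and under 2 Cav1 UMIs were taken as Epcam-positive (median 2104), and 997 cells with 2 or more Cav1 UMIs and no Epcam UMI as Cav1-high (median 2205). MT2 cells outside stromal clusters numbered 9804 (median 3141), and fibroblast-like cells of all 12 libraries 688 (median 2298). The number of Cav1-high cells per MT1 library ran from 38 in replicate 2 to 293 in replicate 4, and of gland cells from 71 in MG1 replicate 2 to 1044 in MG2 replicate 1. Libraries shared at most 7 cell barcodes. Levels are UMIs of a gene per 1000000 UMIs of the population in that library (CPM), and shares of positive cells are given at 1000 UMIs per cell, which removes differences in depth.

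The labels of the populations were checked against their markers. The summed level of the 9 epithelial markers ran from 9377 to 11040 CPM in the Epcam-positive libraries, from 1389 to 1678 in the Cav1-high libraries and from 645 to 878 in MT2. Epcam is 1 of the 9 and was used in both MT1 gates, so part of that gap was fixed by the gates. It stood at 2348 CPM pooled in Epcam-positive and 0 in Cav1-high cells. The other markers were lower in Cav1-high cells too, such as Krt8 (2738 against 736 CPM) and Cldn3 (681 against 29.8 CPM). The summed level of the 11 fibroblast markers ran from 1652 to 1925 CPM in Cav1-high cells, 924 to 1077 in MT2, 83.9 to 168 in Epcam-positive cells and 427 to 783 in gland epithelium, against 6860 to 18770 in fibroblast-like cells. In Cav1-high cells this level was mostly Dcn, at 1611 CPM, and Col6a3, at 91.2 CPM. C3 stood at 24.5 CPM and Pdgfra at 13.6 CPM, against 1.05 CPM of Pdgfra in Epcam-positive cells. The remaining 7 markers had 0 UMIs (Clec3b, Pi16), 3 UMIs (Dpt, Mfap5), 5 (Lum), 6 (Serpinf1) or 7 (Col1a1) over all 997 cells. Epithelial markers were also read in fibroblast-like cells of MT1, at a summed 1837 to 3015 CPM. In MT2, Clec3b was at 0.0487 CPM, Pi16 at 0.122 CPM and Dpt at 0.414 CPM, while Dcn reached 772 CPM, Col1a1 86.8 CPM, Pdgfra 79.3 CPM and C3 62.5 CPM. In gland epithelium Col1a1 was at 4.36 CPM and C3 at 113 CPM. The part of fibroblast RNA in the results was not tested.

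**Figure D1:**
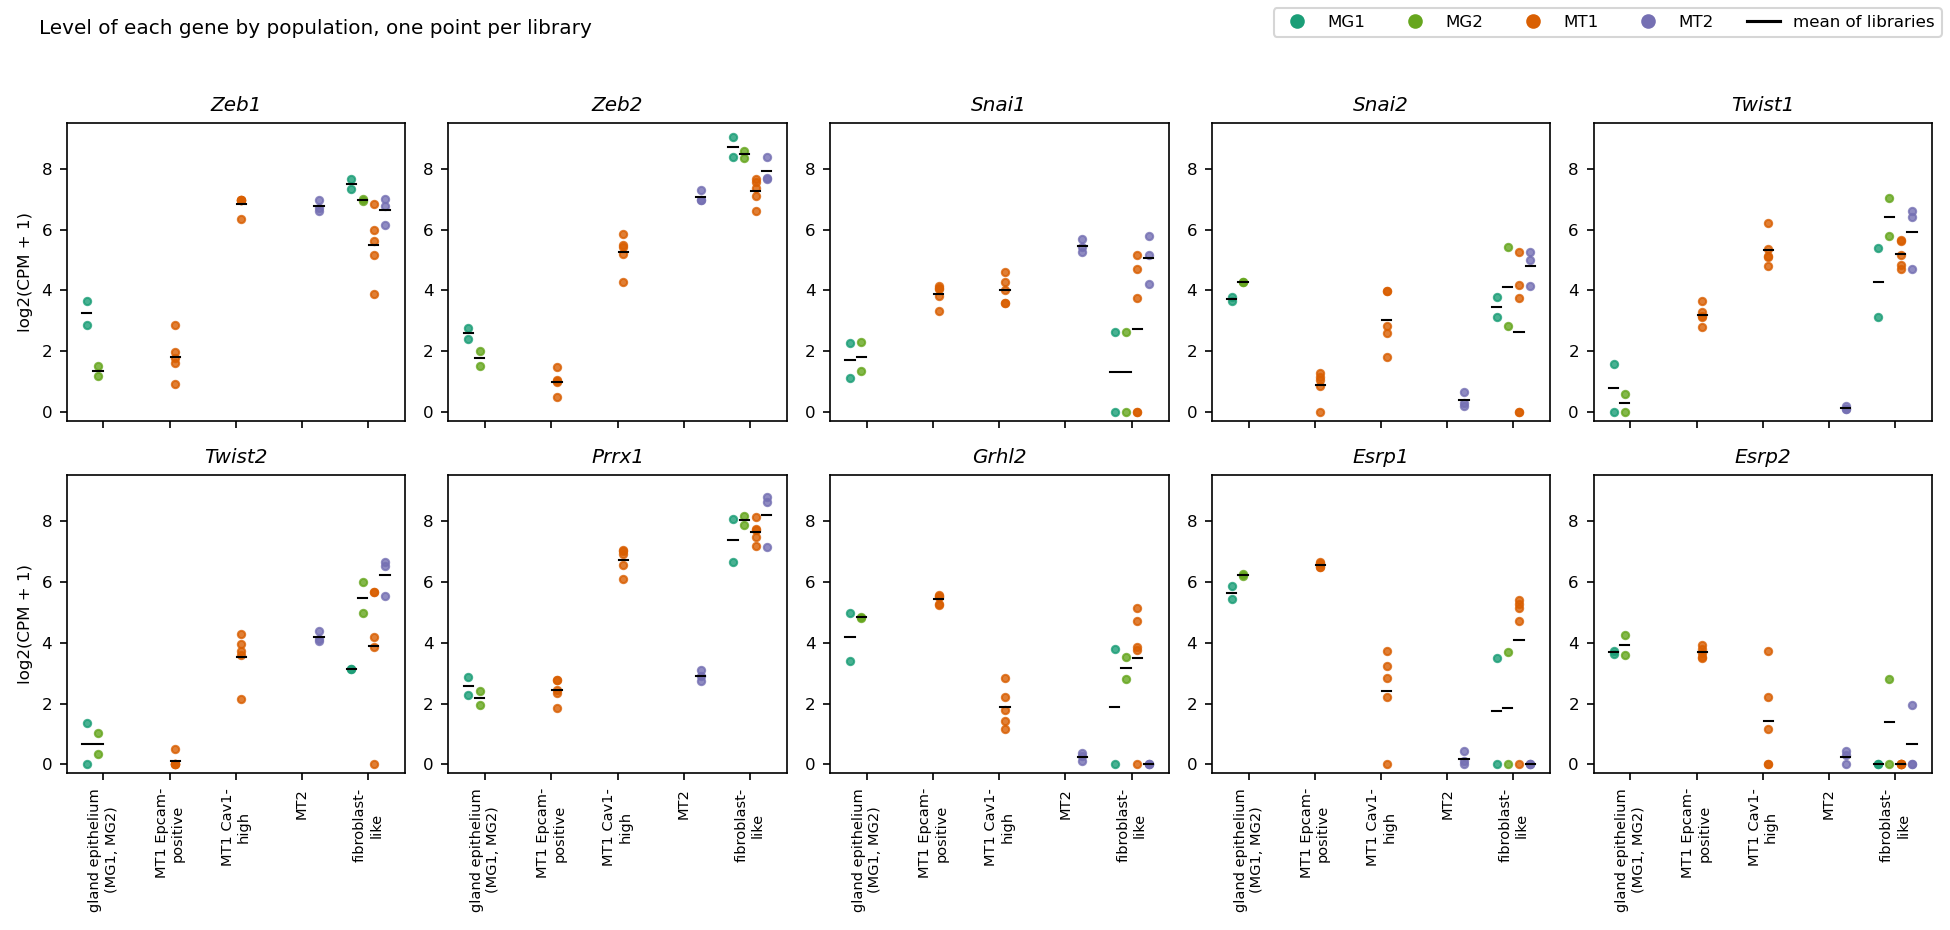
Level of each member as log2(CPM + 1) in 5 populations, with 1 point per library, colours for MG1, MG2, MT1 and MT2, and a bar at the mean of each group's libraries. Zeb1 and Zeb2 sit high in Cav1-high, MT2 and fibroblast-like cells, and Grhl2 and Esrp1 sit high in gland epithelium and Epcam-positive cells.

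Comparing the Cav1-high with the Epcam-positive cells of MT1 asks how the regulators differ between cells that share a tumor and a library. Zeb1, Zeb2, Prrx1 and Twist1 were higher in Cav1-high cells and Grhl2, Esrp1 and Esrp2 were lower, while Snai1 did not pass the test. Of 8 members tested, 4 were called higher and 3 lower. Over all 8024 genes tested, 30.9% were called higher and 32.1% lower, or 63.0% in either direction, at an adjusted p under 0.05 from edgeR with the library as block.

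Zeb1, a zinc-finger repressor of epithelial genes, measured 0.883, 6.34, 2.05, 2.40 and 2.89 CPM in the Epcam-positive cells of MT1 replicates 1 to 5. In the Cav1-high cells of the same libraries it measured 125, 80.4, 126, 125 and 124 CPM. Every Cav1-high value lay above every Epcam-positive value, and replicate 2, with the fewest cells, was the lowest of the Cav1-high values. The log2 fold change of Zeb1 was 5.39 (SE 0.21, edgeR adjusted p = 2.14e-29). At 1000 UMIs per cell, 10.5% of Cav1-high and 0.288% of Epcam-positive cells had a Zeb1 UMI, as means over the 5 libraries.

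Zeb2, the paralog of Zeb1, measured 1.77, 0.975, 1.02, 1.07 and 0.413 CPM in Epcam-positive cells of replicates 1 to 5 and 44.0, 18.6, 57.3, 42.1 and 35.6 CPM in Cav1-high cells. Its ranges were apart in the same way (log2 fold change 5.35, SE 0.30, edgeR adjusted p = 5.38e-22). Prrx1 went from 2.65, 5.85, 4.50, 5.86 and 4.13 CPM to 132, 68.1, 128, 94.0 and 120.4 CPM (log2 fold change 4.49, SE 0.18, edgeR adjusted p = 5.26e-28). For Prrx1 the ranges were apart as well, with replicate 2 again lowest among Cav1-high cells.

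Twist1, a basic helix-loop-helix factor, was already measured in Epcam-positive cells, at 11.5, 7.80, 5.93, 8.79 and 7.85 CPM. In Cav1-high cells it reached 40.3, 74.3, 34.2, 33.4 and 27.1 CPM, a smaller step than those of Zeb1, Zeb2 and Prrx1 (log2 fold change 2.21, SE 0.23, edgeR adjusted p = 4.34e-12). Its ranges did not overlap, and here replicate 2 was the highest. Snai1, a zinc-finger repressor of Cdh1, was at 15.9, 16.6, 9.001, 15.4 and 13.2 CPM in Epcam-positive cells and at 10.99, 18.6, 10.98, 23.5 and 15.3 CPM in Cav1-high cells. These ranges overlapped, and the log2 fold change of 0.30 (SE 0.26, interval -0.20 to 0.80, adjusted p = 0.315) did not pass the edgeR test.

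Snai2 and Twist2 were too low in MT1 for the test. Snai2 had 22 UMIs in Cav1-high and 15 in Epcam-positive cells, or 8.29 against 1.05 CPM, a ratio of 7.88 (95% counting interval 3.91 to 16.3). Twist2 had 28 UMIs against 2, or 10.6 against 0.140 CPM, a ratio of 75.2 with a wide counting interval of 19.0 to 651. By library, Snai2 stood at 14.7, 6.19, 14.6, 2.47 and 5.09 CPM in Cav1-high cells, and Twist2 at 14.7, 18.6, 12.2, 11.1 and 3.39 CPM. The library values of both genes did not overlap between the 2 populations. The interval covers counting error only.

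The epithelial side went the other way. Esrp1, which directs epithelial splicing, measured 94.5, 98.5, 89.4, 88.2 and 99.5 CPM in Epcam-positive cells and 3.66, 12.4, 6.10, 0 and 8.48 CPM in Cav1-high cells (log2 fold change -4.22, SE 0.25, edgeR adjusted p = 2.42e-21). Grhl2 measured 45.9, 46.3, 44.8, 37.6 and 36.7 CPM against 3.66, 6.19, 2.44, 1.24 and 1.70 CPM (log2 fold change -4.14, SE 0.34, edgeR adjusted p = 1.02e-15). For both genes all Epcam-positive libraries lay above all Cav1-high libraries. Esrp2, the paralog of Esrp1, was lower by a log2 fold change of -2.90 (SE 0.55, edgeR adjusted p = 8.41e-06), but replicate 2 held 12.4 CPM in its 38 Cav1-high cells, within the range of 10.2 to 14.1 CPM of Epcam-positive cells. With 1 library left out the Esrp2 change ran from -3.78 to -2.37.

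The low counts of Esrp1 and Grhl2 were set beside cells that should lack them. In fibroblast-like cells of MT1, Esrp1 stood at 27.6 CPM ± 16.5 (SD, n = 5) and Grhl2 at 17.2 ± 13.2, both above their means of 6.12 ± 4.70 and 3.04 ± 1.98 in Cav1-high cells. At 1000 UMIs per cell, an Esrp1 UMI was found in 2.36% of the fibroblast-like cells (136 cells in MT1) and in 0.546% of Cav1-high cells. The fibroblast-like cells were not gated on Epcam, so the comparison is not of like gates, and no expression of Esrp1 or Grhl2 is read from the low counts of Cav1-high cells.

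**Figure D2:**
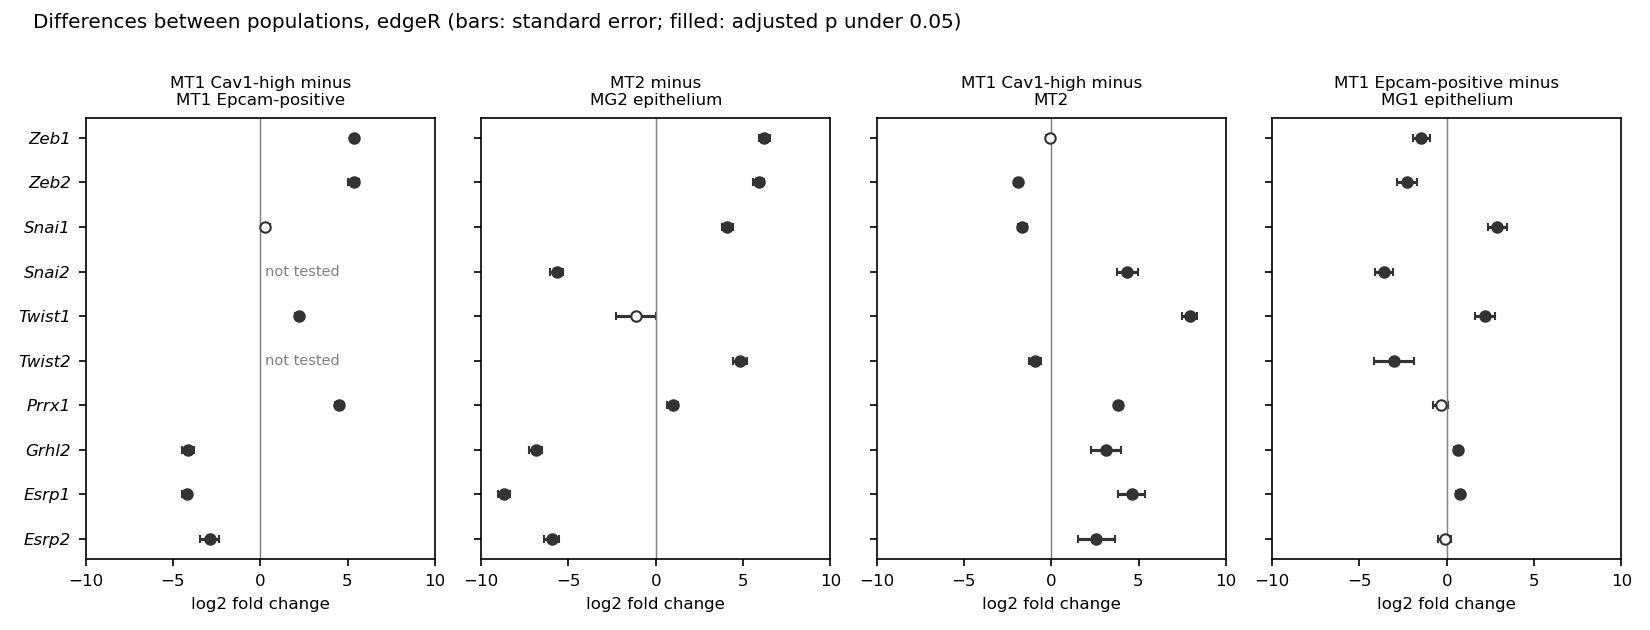
Log2 fold changes of the members with standard errors in 4 comparisons, where the first panel holds the 8 members tested (not Snai2 and Twist2), and filled points passed an adjusted p of 0.05 and open points did not. Zeb1 is at 5.39 in the first panel and at -0.09 in the third, where MT1 Cav1-high cells are set against MT2, while Twist1 is at 7.94 in the third panel.

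Cav1 UMIs per cell were used to ask whether the members moved step by step across MT1. Among cells with no Epcam UMI, those with 0 Cav1 UMIs (282 cells) had an Esrp1 UMI in 7.36% and a Zeb1 UMI in 0.442% of cells at 1000 UMIs. In those with 5 or more Cav1 UMIs (950 cells) the shares were 0.507% for Esrp1 and 11.5% for Zeb1. The 59 cells with 1 Cav1 UMI still resembled the first class (7.24% for Esrp1, 0 Zeb1 UMIs), while the 47 cells with 2 to 4 were near the last class for Esrp1 (0.384%) and between the classes for Zeb1 (5.92%, from 5 UMIs). The middle classes hold few cells.

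Cells with UMIs of both gates made up 573 of the 7457 MT1 cells outside stroma. With 1 or more Epcam UMIs and 2 to 4 Cav1 UMIs (176 cells), 7.33% had an Esrp1 UMI and 0.919% a Zeb1 UMI at 1000 UMIs per cell. With 5 or more Cav1 UMIs (397 cells), 10.6% had a Zeb1 UMI and 8.09% a Prrx1 UMI, while 2.48% had an Esrp1 UMI and 1.46% a Grhl2 UMI. In pooled CPM, Zeb1 stood at 111 and Esrp1 at 29.5 in these 397 cells. Their Zeb1 level was near that of Cav1-high cells without Epcam, and their Esrp1 level lay between those of the Cav1-high and Epcam-positive cells. Their median of 2890 UMIs was above that of the other classes, and doublets were not removed, so the part of cell pairs in this class was not tested. These classes are descriptions, with no test.

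**Figure D3:**
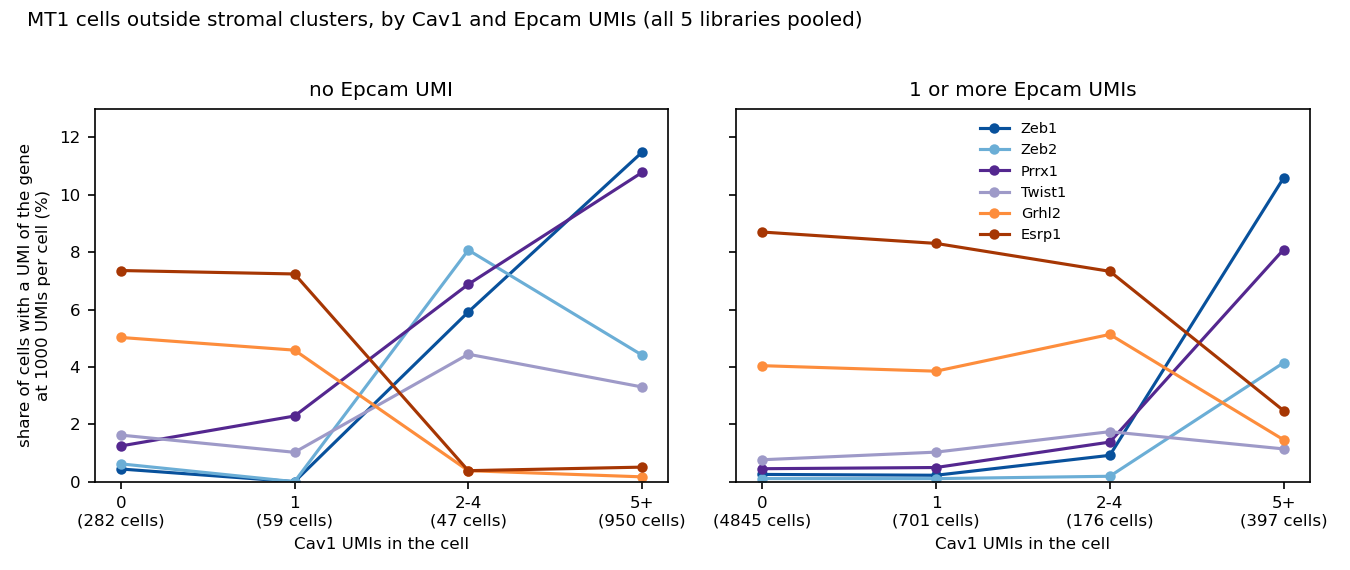
Share of MT1 cells with a UMI of each gene at 1000 UMIs per cell, by Cav1 UMIs in the cell (0, 1, 2 to 4, 5 or more), for cells without (left) and with (right) Epcam UMIs, with all 5 libraries pooled. Without Epcam, Zeb1 rises from 0.442% to 11.5% and Esrp1 falls from 7.36% to 0.507% between the first and last class.

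Setting MT2 against the gland epithelium of the same mouse asks how the regulators changed from gland to tumor. Zeb1, Zeb2, Snai1 and Twist2 were higher in MT2, and Grhl2, Esrp1, Esrp2 and Snai2 were lower. Of 10 members tested, 5 were called higher and 4 lower by edgeR, where 32.6% of all 13569 genes tested were called higher and 35.1% lower, or 67.7% in either direction. With the 4 sums of mouse and tissue and the mouse as block, edgeR tested tumor against gland over both mice and called 0 of 14884 genes (2262 at an unadjusted p under 0.05), and the adjusted p of the 10 members ran from 0.295 to 0.698.

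Zeb1 measured 1.27 and 1.85 CPM in the gland epithelium of MG2 and 126, 103 and 97.3 CPM in MT2 replicates 1 to 3 (log2 fold change 6.22, SE 0.30, edgeR adjusted p = 3.97e-12). Zeb2 measured 3.05 and 1.85 CPM against 158, 125 and 124 CPM (5.89, SE 0.32, edgeR adjusted p = 2.46e-11). Snai1 measured 1.52 and 3.97 CPM against 42.1, 37.7 and 51.2 CPM (4.11, SE 0.33, edgeR adjusted p = 4.57e-09, or 3.66 to 5.12 with 1 library left out). For each of these the MT2 libraries lay far above both gland libraries and close to each other.

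The Twist paralogs parted in MT2. Twist2 measured 0.254 and 1.06 CPM in MG2 and 15.7, 16.5 and 19.7 CPM in MT2 (log2 fold change 4.81, SE 0.40, edgeR adjusted p = 8.24e-09, or 4.21 to 6.26 with 1 library left out). Twist1 had 4 UMIs in the 9804 MT2 cells and 2 in the MG2 epithelium, a ratio of 0.376 (95% counting interval 0.0538 to 4.15), and did not pass the test. Twist1 was thus not detectably different from the gland at this depth in MT2. Prrx1 was at 4.32 and 2.91 CPM in MG2 and at 6.50, 5.63 and 7.64 CPM in MT2 (log2 fold change 0.97, SE 0.33, edgeR adjusted p = 0.0161). That call was lost without the 5% of cells with the most UMIs (0.59, edgeR adjusted p = 0.151) and without MG2 replicate 2 (0.90). It was also lost with all cells of each library (0.04, edgeR adjusted p = 0.926). With 1 library left out the Prrx1 change ran from 0.86 to 1.38.

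The epithelial factors were nearly absent from MT2. Esrp1 measured 75.5 and 71.9 CPM in MG2 and 0.0699, 0.366 and 0 CPM in MT2, with 6 UMIs in all (log2 fold change -8.67, SE 0.35, edgeR adjusted p = 5.34e-13). Grhl2 measured 27.7 and 27.2 CPM against 0.0699, 0.219 and 0.305 CPM (-6.88, SE 0.39, edgeR adjusted p = 3.54e-11). Esrp2 measured 11.2 and 18.0 CPM against 0.349, 0 and 0.229 CPM (-5.96, SE 0.42, edgeR adjusted p = 6.99e-10). All 3 genes had ranges far apart. With 1 library left out, Esrp1 ran from -10.1 to -8.15, Grhl2 from -7.24 to -6.48 and Esrp2 from -6.63 to -5.38.

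Snai2 was lower in each tumor than in the gland epithelium of the same mouse, which includes basal-like cells. It measured 18.5 CPM in each MG2 library and 0.140, 0.585 and 0.229 CPM in MT2 (log2 fold change -5.67, SE 0.37, edgeR adjusted p = 2.35e-10, or -6.35 to -5.30 with 1 library left out). In the Epcam-positive cells of MT1 it measured 0, 1.46, 1.23, 1.07 and 0.826 CPM against 12.6 and 11.5 CPM in MG1 (-3.59, SE 0.51, edgeR adjusted p = 1.04e-06). Within the gland, Snai2 was highest in basal-like cells, at 112 and 90.8 CPM in MG1 and 132 and 158 CPM in MG2. Basal-like cells were 321 of the 2713 gland cells. Pooled levels in the luminal classes were 8.95 CPM for secretory-like and 4.14 CPM for hormone-sensing-like cells. By mouse, the luminal classes of MG2 (4.98 to 12.2 CPM) lay above MT2, whereas those of MG1, with 3, 0, 1 and 0 UMIs (0 to 2.93 CPM), overlapped the 0 to 1.46 CPM of the Epcam-positive cells of MT1. Prrx1 followed the same order, with 29.1 CPM in basal-like and 2.29 and 1.77 CPM in the luminal classes, whereas Esrp2 was at 1.12 CPM in basal-like and at 12.9 and 16.95 CPM in luminal cells.

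MT1 as a whole was tested against the MG1 epithelium in the same fit. With all 7457 MT1 cells outside stroma summed, the 573 cells of both gates and the 341 of neither included, 4 members were called higher (Zeb1, Snai1, Twist1 and Prrx1) and Snai2 lower by edgeR, where 32.2% of 13569 genes were called higher and 27.9% lower, or 60.2% in all. The log2 fold changes were 1.78 for Zeb1 (SE 0.30), 2.97 for Snai1 (SE 0.56), 2.90 for Twist1 (SE 0.55) and 2.06 for Prrx1 (SE 0.36). Grhl2 (0.40, SE 0.28) and Esrp1 (0.47, SE 0.23) did not pass, and with 1 library left out they ran from 0.07 to 1.95 and from 0.28 to 0.92, the highest value of each being without MG1 replicate 1, where both passed. The difference between the mice in this change, tested as an interaction, was called for 8 of 10 members, 5 with a positive and 3 with a negative sign, where 26.5% and 17.4% of genes were called, or 43.9% in all. It was 9.14 for Esrp1 (SE 0.45) and 7.28 for Grhl2 (SE 0.50), and -4.96 for Zeb2 (SE 0.71) and -4.45 for Zeb1 (SE 0.52), with positive values for a change more toward higher levels in mouse 1. With 1 library left out, this difference ran from 8.62 to 10.5 for Esrp1 and from 6.88 to 8.76 for Grhl2. For Zeb2 it ran from -5.39 to -4.77 and for Zeb1 from -5.00 to -4.22. Snai1 (-1.14, SE 0.90, adjusted p = 0.328) and Prrx1 (1.09, SE 0.53, adjusted p = 0.105) did not pass this edgeR test. The Twist1 interaction call was lost in 11 alternatives. Set directly against MT2, MT1 as a whole was called for all 10 members, 6 higher and 4 lower, where 35.8% and 32.6% of genes were called, or 68.4% in all. Fewer cells of a kind and less RNA per cell cannot be told apart in such sums. Leaving out MG1 replicate 1, which leaves 71 cells for MG1, ended the edgeR calls of Zeb1 (1.30) and Snai1 (1.94). With all cells of each library, which adds stromal cells and the gland cells in tumor clusters, Zeb1 turned to -0.40 and Prrx1 to -0.24. The Twist1 call was lost there (1.10, edgeR adjusted p = 0.0721). Twist1 ran from 2.57 to 9.26 with 1 library left out, the highest value being against 0 UMIs in MG1 replicate 2 alone.

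The Epcam-positive cells of MT1 had Snai1, Twist1, Grhl2 and Esrp1 higher and Snai2, Zeb1, Zeb2 and Twist2 lower than MG1 epithelium. Of 10 members, 4 were called higher and 4 lower, where 31.0% of 12869 genes were called higher and 28.1% lower, or 59.0% in all. Snai1 measured 1.18 and 3.83 CPM in MG1 against 9.001 to 16.6 CPM in Epcam-positive cells (log2 fold change 2.91, SE 0.55, edgeR adjusted p = 5.73e-05), and Twist1 1.97 and 0 against 5.93 to 11.5 CPM (2.20, SE 0.59, edgeR adjusted p = 0.00224). All 5 Twist1 UMIs of MG1 were in replicate 1, and with 1 library left out the Twist1 change ran from 1.83 to 8.01. Without MG1 replicate 1 the Snai1 change was 1.93 with an adjusted p of 0.0743. Snai1 was uneven within the epithelial tumor cells, at 19.5 CPM in MT1 cluster 3, led by Sfrp1, and 4.35 CPM in MT1 cluster 4, led by Ccl20, as a description of clusters made from the same cells. In MG1, Zeb1 measured 6.32 and 11.5 CPM and Zeb2 4.34 and 5.75 CPM, and both were lower in Epcam-positive cells (Zeb1 -1.45, SE 0.46, and Zeb2 -2.28, SE 0.57), on 40 against 22 UMIs of Zeb1 and 14 against 14 of Zeb2. The Zeb1 ranges overlapped, at 0.883 to 6.34 CPM in Epcam-positive libraries. Fibroblast markers summed to 629 to 783 CPM in MG1 epithelium against 83.9 to 168 CPM in Epcam-positive cells. The part of fibroblast RNA in the Zeb1 and Zeb2 differences was not tested. Without MG1 replicate 1 the Zeb2 call was lost, while the change itself stayed at -2.38. Twist2 had 2 UMIs in Epcam-positive cells and 4 in MG1, a ratio of 0.107 (95% counting interval 0.00969 to 0.748), and without MG1 replicate 1 its log2 fold change turned to 2.47. In MG1, Grhl2 measured 30.8 and 9.59 CPM and Esrp1 57.3 and 42.2 CPM. Grhl2 (0.65, SE 0.25) and Esrp1 (0.76, SE 0.24) were called higher in Epcam-positive cells, and both calls were lost with RLE size factors (0.42 and 0.52, adjusted p = 0.150 and 0.0631) and without MG1 replicate 2 (0.29 and 0.55), while without MG1 replicate 1 they were 2.25 and 1.28. Against MT2, the Epcam-positive cells had 5 members called higher (Snai2, Twist1, Grhl2, Esrp1 and Esrp2) and 5 lower, where 33.4% and 36.6% of genes were called, or 70.0% in all. The Snai2 call (1.53, SE 0.59, on 15 against 13 UMIs) was lost with each of 3 libraries left out, and the Prrx1 call (-0.55, SE 0.24) in 11 alternatives, among them RLE size factors (-0.48) and DESeq2 (-0.48).

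Setting MT1 Cav1-high cells against MT2 asks whether the mesenchymal cells of the 2 tumors used the same regulators. Zeb1 stood at 116 CPM ± 19.8 (SD, n = 5) in Cav1-high and 109 ± 14.9 (n = 3) in MT2, a log2 difference of -0.09 (SE 0.18, interval -0.44 to 0.26, edgeR adjusted p = 0.697). Of 10 members, 6 were called higher in Cav1-high cells and 3 lower, where 19.9% of 12869 genes were called higher and 29.2% lower, or 49.1% in either direction. The median over all genes was -0.18.

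Prrx1, Twist1 and Snai2 were higher in the Cav1-high cells. Prrx1 ran from 68.1 to 132 CPM in Cav1-high libraries and from 5.63 to 7.64 CPM in MT2 (log2 fold change 3.84, SE 0.21, edgeR adjusted p = 1.01e-14). Twist1 ran from 27.1 to 74.3 CPM against 0.0699 to 0.153 CPM (7.94, SE 0.44, edgeR adjusted p = 1.37e-14). Snai2 differed as well (4.37, SE 0.58, edgeR adjusted p = 4.63e-07), at 2.47 to 14.7 CPM against 0.140 to 0.585 CPM. The ranges of all 3 genes were apart.

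Zeb2 and Snai1 were higher in MT2. Zeb2 ran from 124 to 158 CPM in MT2 and from 18.6 to 57.3 CPM in Cav1-high libraries (log2 fold change -1.88, SE 0.19, edgeR adjusted p = 2.32e-09). Snai1 ran from 37.7 to 51.2 CPM against 10.98 to 23.5 CPM (-1.65, SE 0.26, edgeR adjusted p = 6.74e-06). Twist2 overlapped, at 15.7 to 19.7 CPM in MT2 and 3.39 to 18.6 CPM in Cav1-high libraries, and its call (-0.93, SE 0.32, adjusted p = 0.0187) was lost with DESeq2 (-0.79, adjusted p = 0.0622) and without MT2 replicate 3 (adjusted p = 0.117). Grhl2, Esrp1 and Esrp2 were called higher in Cav1-high cells, on 6, 13 and 4 UMIs there. Fibroblast-like cells held Esrp1 at 27.6 CPM in MT1 and 0 UMIs in MT2, and the part of free RNA in the difference was not tested. The Esrp2 call (2.58, SE 1.08) was lost without MT1 replicate 2 (1.81, edgeR adjusted p = 0.267).

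Cell by cell, the factors were sparse. A UMI of any of the 7 EMT factors was found in 61.2% of MT2 cells, 55.2% of Cav1-high cells, 6.98% of Epcam-positive cells and 8.11% of gland epithelium, without matching depth. Zeb1 and Zeb2 UMIs were found together in 1401 MT2 cells and 29 Cav1-high cells, and Zeb1 and Prrx1 together in 67 MT2 and 68 Cav1-high cells. UMIs of Zeb1 and Esrp1 were found together in 4 of 997 Cav1-high and 11 of 5546 Epcam-positive cells. The 2 MT2 clusters, of which cluster 2 was led by mitotic genes, held like levels, with Zeb1 at 114 and 104 CPM, Zeb2 at 149 and 122 CPM and Snai1 at 47.1 and 39.6 CPM.

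Stromal cells give the scale for these levels. In fibroblast-like cells Zeb1 stood at 54.5 ± 37.5 CPM (SD) over the 5 libraries of MT1 and at 102 ± 29.8 CPM over the 3 of MT2. In the glands it ran from 121 to 201 CPM. The library ranges of MT2 tumor cells and fibroblast-like cells of MT2 overlapped for Zeb1, and those of Cav1-high cells overlapped fibroblast-like cells of MT1. Zeb2 in MT2 tumor cells (124 to 158 CPM) lay below fibroblast-like cells of MT2 (202 to 338 CPM). Prrx1 set the populations apart further, at 326 ± 161 CPM in fibroblast-like cells of MT2 against 6.59 ± 1.01 in the tumor cells of the same libraries, and at 204 ± 48.8 against 108 ± 27.0 in MT1. Twist1 likewise stood at 68.9 ± 38.6 CPM in fibroblast-like cells of MT2 and at 0.0986 ± 0.0469 in the tumor cells. Endothelial-like cells held Zeb1, at 158 CPM pooled, with 0 Twist1 UMIs, and immune-like cells held Zeb2, at 320 CPM pooled over 183 cells.

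**Figure D4:**
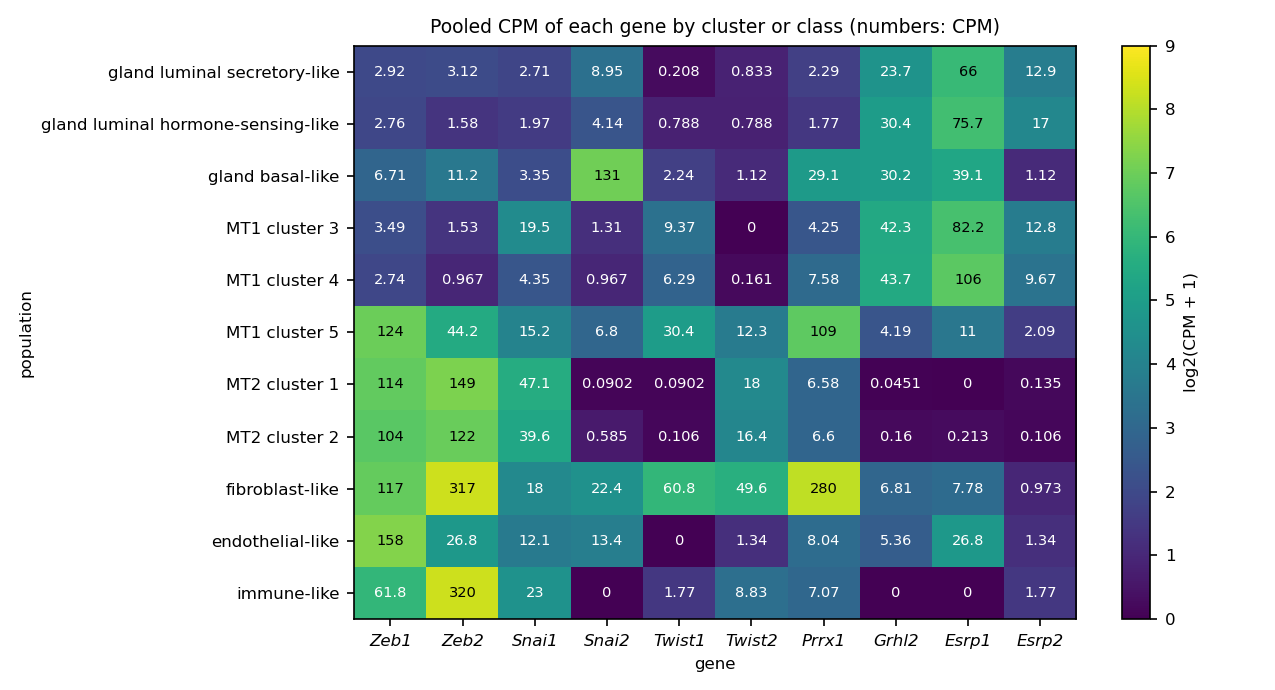
Pooled CPM of the 10 members (columns) in 11 clusters and classes (rows), coloured by log2(CPM + 1) with the CPM printed in each cell. Snai2 is highest in basal-like gland cells at 131 CPM, and Twist1 is at 30.4 CPM in MT1 cluster 5, led by Prl2c3 and Cav1, but at 0.0902 and 0.106 CPM in the MT2 clusters.

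The order of levels was read across gland epithelium, Epcam-positive, Cav1-high, MT2 and fibroblast-like cells. For Zeb1 the last 3 had overlapping library ranges, and all lay above the first 2. For Esrp1 the order was Epcam-positive, MG2, MG1, then Cav1-high cells and MT2. Fibroblast-like cells held no single place, at 32.1 CPM in MT1, 7.72 in MG1, 5.62 in MG2 and 0 UMIs in MT2 with the cells of each group pooled. The ranges of MG2 (71.9 to 75.5 CPM) and Epcam-positive cells (88.2 to 99.5 CPM) were apart while those of Cav1-high cells and fibroblast-like cells of MT1 overlapped. For Snai1, MT2 was highest among the tumor and gland populations, Cav1-high and Epcam-positive cells overlapped, and both gland epithelia (1.18 to 3.97 CPM) lay below.

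The genes whose pattern was most like that of Zeb1 over 17 population profiles were Vim (Pearson r of 0.93), Eml1 (0.92), Atp2b4 (0.92), Nid1 (0.91) and Thbd (0.91), among 10073 genes. Those most like Esrp1 were Mpzl2 (0.99), Chmp4c (0.98), Fxyd3 (0.97), Grhl2 (0.96) and Nipal2 (0.95). Among the members, Zeb2 had r of 0.80 with Zeb1, while Snai2 was at -0.04. Profiles of 1 mouse or library share cells, depth and origin, so these values are descriptions.

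Other genes of the program were counted by list. A gene could pass the filter on low counts through the one population where it was high, so the counts of genes tested are descriptions. Of 18 other epithelial transcription factors, 12 were tested between Cav1-high and Epcam-positive cells and were lower, beside 32.1% of all genes, and 6 were too low for the test. Elf5, a luminal factor, fell by 4.42 (SE 0.28) and Ehf, an ETS factor of epithelia, by 3.79 (SE 0.11). Ovol2, which represses Zeb1 in epithelia, had 2 UMIs against 184, a ratio of 17.1 (95% counting interval 4.67 to 142). Between MT2 and MG2, 13 of 15 were lower, beside 35.1% of all genes, and Trp63, a basal factor, was higher at 2.02 (SE 0.27), with a list median of -5.74 against -0.06 over all genes. Foxa1 had 0 UMIs in MT2 and was at least 508-fold lower there, Elf5 was at -8.00 (SE 0.27), Tfap2c at -7.80 (SE 0.26) and Ehf at -7.26 (SE 0.22). Klf4 did not pass (-0.25, SE 0.18).

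Of 22 other EMT-linked transcription factors, 11 were tested in MT1, with 7 higher and 3 lower in Cav1-high cells, beside 30.9% and 32.1% of all genes. Prrx2, the paralog of Prrx1, was higher by 5.56 (SE 0.23), Runx2 by 2.43 (SE 0.28), Hmga2, an architectural chromatin protein, by 2.18 (SE 0.10) and Tcf4 by 1.49 (SE 0.11). Foxc1 (-1.28, SE 0.12), Sox4 (-1.24, SE 0.06) and Runx1 (-0.95, SE 0.11) were lower. Between MT2 and MG2, 6 of 15 were higher and 6 lower, close to the 32.6% and 35.1% of all genes. Hmga2 was higher by 6.72 (SE 0.26) and Prrx2 by 5.49 (SE 0.38). The list median of 0.00 is that of Lef1, which had 0 UMIs in both. Msx2 had 0 UMIs in MT2 and was at least 165-fold lower.

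Of 17 other splicing regulators, 14 were tested in MT1, with 9 higher and 2 lower in Cav1-high cells (median 0.34), beside 30.9% and 32.1% of all genes. Rbm47, an RNA-binding protein of epithelia, fell by 4.70 (SE 0.38), and Mbnl2 by 0.41 (SE 0.07). Celf2 was higher by 3.75 (SE 0.26), Rbfox2 by 2.07 (SE 0.09), Mbnl1 by 0.84 (SE 0.08) and Qk, or Quaking, by 0.68 (SE 0.12). Between MT2 and MG2, 7 of 15 were higher and 4 lower (median 0.47), beside 32.6% and 35.1% of all genes. Rbm47 was at -3.92 (SE 0.19) and Khdrbs3 at -5.31 (SE 0.35), while Mbnl3 was at 2.99 (SE 0.29) and Rbfox2 at 2.25 (SE 0.15).

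Effector genes were counted in the same way. All 21 epithelial effector genes tested were lower in Cav1-high than in Epcam-positive cells, beside 32.1% of all genes, among them Epcam itself, which set the gate. Rab25, a vesicle GTPase, fell by 5.57 (SE 0.32), and Ocln had 1 UMI against 341, a ratio of 63.5 (95% counting interval 11.3 to 2515). In MT2 all 22 were lower than in MG2, beside 35.1% of all genes (median -7.28, or -7.08 with Prss8 and Tjp3 at their bounds), with Spint2 at -9.19 (SE 0.31) and Cdh1, or E-cadherin, at -8.78 (SE 0.23). Of 18 mesenchymal effector genes, 8 were too low for the test in MT1, among them Col1a1 at 2.64 CPM in Cav1-high and 4.84 CPM in Epcam-positive cells. Of those tested in Cav1-high against Epcam-positive cells, Vim was at 6.38 (SE 0.06), Fn1 at 5.53 (SE 0.10) and Itga5 at 4.54 (SE 0.18), while Mmp2 was lower (-2.77, SE 0.47). In MT2, 15 of 17 were higher than in MG2, beside 32.6% of all genes (median 4.80), with Col1a2 at 7.99 (SE 0.25), Col5a2 at 7.54 (SE 0.27) and Fn1 at 7.34 (SE 0.29), and Tagln was lower (-6.31, SE 0.34). Against MT2, Cav1-high cells had 13 of 17 mesenchymal effector genes lower and 3 higher, and 16 of 22 epithelial ones higher and 1 lower, beside 19.9% of all genes higher and 29.2% lower. Epcam-positive cells had 11 of 17 mesenchymal effector genes lower than MG1 and 3 higher, and 6 of 22 epithelial ones lower and 4 higher, beside 28.1% of all genes lower and 31.0% higher. For MT1 as a whole against MG1, 5 of 17 mesenchymal effector genes were higher and 5 lower, and 3 of 22 epithelial ones higher and 11 lower, beside 32.2% and 27.9% of all genes.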

How the data were processed

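The study's methods describe Drop-seq tools, and the submitters' processing notes name STAR and GRCm38.p6. The authors deposited raw UMI counts for 21743 genes in 21157 cells of 12 libraries (693333 to 14841414 UMIs each), and every cell in the table had at least 800 genes and 1111 UMIs. How reads of paralogs were split is not given in the sources used here. For this report the log-normalized table was clustered with scanpy 1.11.5 and leidenalg 0.10.2 under python 3.11.15 (3000 variable genes, 30 components, 20 neighbours, resolution 0.6), leaving out 63 genes, which are the members and the lists of transcription factors and splicing regulators. A cluster was named from 3 or more markers at a log2 fold of 1 with a pseudocount of 10 CPM, and clusters with over 90% tumor cells were called tumor clusters. Left out of the tests were 1120 stromal cells and 63 gland cells in tumor clusters. MT1 cells in gland-type clusters were kept (70 hormone-sensing-like, 23 secretory-like and 4 basal-like). MT2 cells in clusters 3, 4 and 5 of mostly MT1 cells (13, 3 and 13) and in the secretory-like cluster (2) were kept as well. Their part in the results was not tested. Of the 997 Cav1-high cells, 981 lay in cluster 5. Since names were rebuilt, they may differ from the study's. Doublets were kept, and as an alternative the 5% of cells with the most UMIs were dropped.

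Summed counts per library and population went into edgeR 4.0.16 (R 4.3.3; TMM, filterByExpr, quasi-likelihood F test), with Benjamini-Hochberg adjustment over all genes and a threshold of 0.05. One fit held the 12 tumor and gland sums, another both MT1 populations with the library as block, and the last 5 groups of sums for the remaining comparisons. Comparisons share sums of the same libraries. SE is the absolute log2 fold change over the square root of F, and intervals of differences are 1.96 SE to each side. Replicates are libraries of 1 tissue of 1 mouse. The labels do not say whether they are separate preparations, so p-values measure the spread between these libraries, which may be technical. The labels name no batch, and one that runs along tissue or mouse cannot be told apart from them. Gland and tumor are paired by mouse in the labels. Shares at 1000 UMIs are expectations under random thinning. Counting intervals are exact (95%) and cover counting error only, and a group at 0 UMIs was set to 3 counts over the group for bounds. On simulated data, a log2 fold of 2 was recovered in 77% of 100 genes for MT1 against MG1 (13569 genes) and in 100% for the MT1 populations (8024 genes), and a log2 fold of 1 in 33% and 92%. The changed genes were drawn at random over all levels, and all other genes had equal means between groups. These rates therefore need not hold for members with few UMIs. Alternatives were RLE size factors, DESeq2 1.42.0, no filter, other gates and cell sets, no library block, thinning to 500 UMIs, each library left out and, chosen after seeing the data, tests on clusters from all variable genes.

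The members and lists were chosen with earlier results of these data known. Named are all members, up to 4 list genes a side with the largest changes in the comparisons of Cav1-high with Epcam-positive cells and of MT2 with MG2, and the 5 genes most like Zeb1 and Esrp1 (Pearson r of log2(CPM + 1), profiles of 50 or more cells, genes at 20 CPM or more in 1 profile). Klf4 and Lef1 were named after their values were seen. Some list genes that the rule would name are not reported here.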

Additional observations from a re-analysis of the deposited data

Results flagged for a closer look

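The difference between mice in the change from gland to tumor passed the edgeR interaction test for 8 of 10 members, beside 43.9% of all 13569 genes tested (26.5% higher and 17.4% lower). On the log2 scale, mouse 1 minus mouse 2, it was -4.45 for Zeb1, -4.96 for Zeb2, 3.18 for Snai2, 4.04 for Twist1, -3.96 for Twist2, 7.28 for Grhl2, 9.14 for Esrp1 and 5.59 for Esrp2. The Twist1 value (adjusted p = 0.0467) rests on few UMIs and was 0.41 without MG2 replicate 1. Its call was lost in 11 alternatives, among them RLE size factors (3.89, edgeR adjusted p = 0.0521) and no filter on low counts (3.88, edgeR adjusted p = 0.0751). Twist2 turned to 2.04 without MG1 replicate 1.

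Replicate 2 of MT1, with 38 Cav1-high cells, stood apart from the other 4 libraries in this population for 2 members. Its Zeb1 level of 80.4 CPM (13 UMIs) lay below the next value of 124 CPM, and its Twist1 level of 74.3 CPM (12 UMIs) lay above the next value of 40.3 CPM. The part of counting error in these gaps was not tested. In Epcam-positive cells, Twist2 was at 0.409 CPM (2 UMIs) in MT1 replicate 3 and at 0 UMIs in the other 4 libraries, where any UMI would stand apart. Of 20 groups of library values looked at in this way, chance marks about 1 in 20.

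Gland cells outside the comparisons held UMIs of the members. The 45 MG2 cells that clustered with the Cav1-high cells had Zeb1 at 81.8 CPM (20 UMIs) and Prrx1 at 8.18 CPM (2 UMIs), against 1.56 ± 0.411 and 3.61 ± 0.996 CPM in MG2 epithelium (SD, n = 2). The Prrx1 value is below the level of 3 UMIs, and no difference is read from it. Zeb2 was at 143 CPM there, with 0 UMIs of Twist1, Twist2 and Grhl2.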

How the results depend on the processing

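Of 1401 member values under an alternative, 1305 kept their direction and side of the threshold, 70 lost the call, 5 gained it and 21 changed sign. Between Cav1-high and Epcam-positive cells all 111 were kept, and between MT1 and MT2 all 190. These counts include fits that left out a library of a group outside the comparison, such as a gland library for MT1 against MT2. Such a fit reaches the comparison only through the filter, the size factors and the shared spread, so it is a weak check. With the mouse as replicate block (4 sums), edgeR called 0 genes for tumor against gland over both mice, and Grhl2 (-3.10), Esrp1 (-3.85) and Twist1 (1.25) had other signs than in MT1-MG1 or MT2-MG2. With all cells of each library, MT1-MG1 turned to -0.40 for Zeb1, -2.62 for Zeb2 and -0.24 for Prrx1, and the Prrx1 interaction to -0.27. The Zeb1 difference between Cav1-high cells and MT2, which did not pass the test, was 0.0514 with RLE and 0.0495 with DESeq2, and -0.12 to 0.14 with 1 library left out. With 1 library left out, Twist1 in MT2-MG2 ran from -1.89 to 2.55, the Twist2 interaction from -5.34 to 2.04, and for Epcam-positive cells against MG1 Twist2 from -5.58 to 2.47, Prrx1 from -0.54 to 0.46 and Esrp2 from -0.22 to 0.15. Esrp2 was 0.0141 there without the cells with the most UMIs. The cause was not tested. The calls of Epcam-positive cells against MG1 split 3985 higher to 3612 lower, but 3183 to 4367 with RLE and 3024 to 4372 with DESeq2. Those of Cav1-high cells against MT2 split 2560 to 3762, and 3233 to 2985 with DESeq2. Those of the interaction split 3592 to 2361, and 3013 to 2972 with DESeq2. RLE moved the median of all genes from 0.09 to -0.13 and from -0.18 to -0.04 in the first pair of these. MG1 replicate 2 and the Cav1-high cells of MT1 replicate 2 limit the depth, with 71 and 38 cells. Where 1 MG1 or MG2 library is left out, the remaining one is assumed to vary like the other groups.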
